A study of Arabidopsis thaliana with 6 samples.

Results

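A set of 69 Arabidopsis genes stood moderately higher in every replicate after 24 h with a synthetic compound. The genes were chosen from the measured values. Each was read by a probe set annotated to 1 gene, its compound array exceeded the DMSO array of the same replicate number by at least 0.4 on the log2 scale in all 3 replicates, the mean of the 3 differences was at least 0.5 and below 1.0, and its mean level over the 6 arrays was at least 5. They were 69 of 13513 one-gene probe sets and of 22746 non-control probe sets on the array. Of the 7151 one-gene probe sets with a mean level of at least 5, they made up 0.965%.

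The plants were Arabidopsis thaliana seedlings (Columbia 0, no mutation or transgene named in the labels), 7 days old when 5 µM of the compound, or DMSO (dimethyl sulfoxide, its solvent) alone, was added to half-strength Murashige and Skoog medium with sucrose. The compound is an anilide of 2-(2,4-dichlorophenoxy)propanoic acid. Both groups had 3 biological replicates, each pooled from 24 wells that had received 5 seeds apiece, and whole seedlings were taken. RNA was hybridised to 3'-biased Affymetrix arrays and given as log2 RMA values, with array medians between 5.75 and 5.79. The single comparison of the design asks which transcripts differ after the compound, in a study whose title concerns auxin signalling and cell death that depends on photorespiratory hydrogen peroxide.

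Auxin is the plant hormone that promotes cell expansion, lateral root formation and vascular patterning. It acts through receptors that remove Aux/IAA repressors, which frees auxin response factors to switch on early response genes. The dichlorophenoxy group of the compound is also part of 2,4-D, a synthetic auxin. Downstream of such early genes lie wall-remodelling enzymes, transporters and metabolic enzymes.

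Seedling tissue types were represented only in part. The 8 nuclear photosystem, light-harvesting and Rubisco genes read by one-gene probe sets had mean levels from 7.34 to 13.4. PYK10, a beta-glucosidase gene of roots, had a mean of 12.8 with DMSO and 12.7 with the compound. The root hair expansins EXPA7 and EXPA18 had means between 7.25 and 7.55 with DMSO and between 5.44 and 5.46 with the compound. The vascular peptide genes CLE41 and CLE44 had means between 5.20 and 6.61 with DMSO and between 6.83 and 6.84 with the compound. The guard cell gene FMA had means of 5.35 with DMSO and 5.45 with the compound. None of the 8 listed shoot markers had a one-gene probe set, and none of the 69 genes is one of the listed markers. In whole seedlings, more cells of a type and more RNA per cell cannot be told apart, and the part of cell composition in the differences was not tested.

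The values that chose the genes are given here as a description, with no test. The mean differences ran from 0.503 to 0.996, with a median of 0.689, or 1.42-fold to 1.99-fold with a median of 1.61-fold. The median difference over the 7151 one-gene probe sets was 0.0115. Most of the set lay in the lower part of its range. A mean difference below 0.6 was found for 20 genes, one from 0.6 to below 0.7 for 20 genes, and one of 0.9 or more for 9 genes. The SD of the 3 differences had a median of 0.171 and ran from 0.0192 to 0.529. It was below 0.1 for 15 genes and above 0.3 for 11 genes. The largest of the 3 differences fell in replicate 3 for 32 genes, in replicate 1 for 20 and in replicate 2 for 17.

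**Figure D1:**
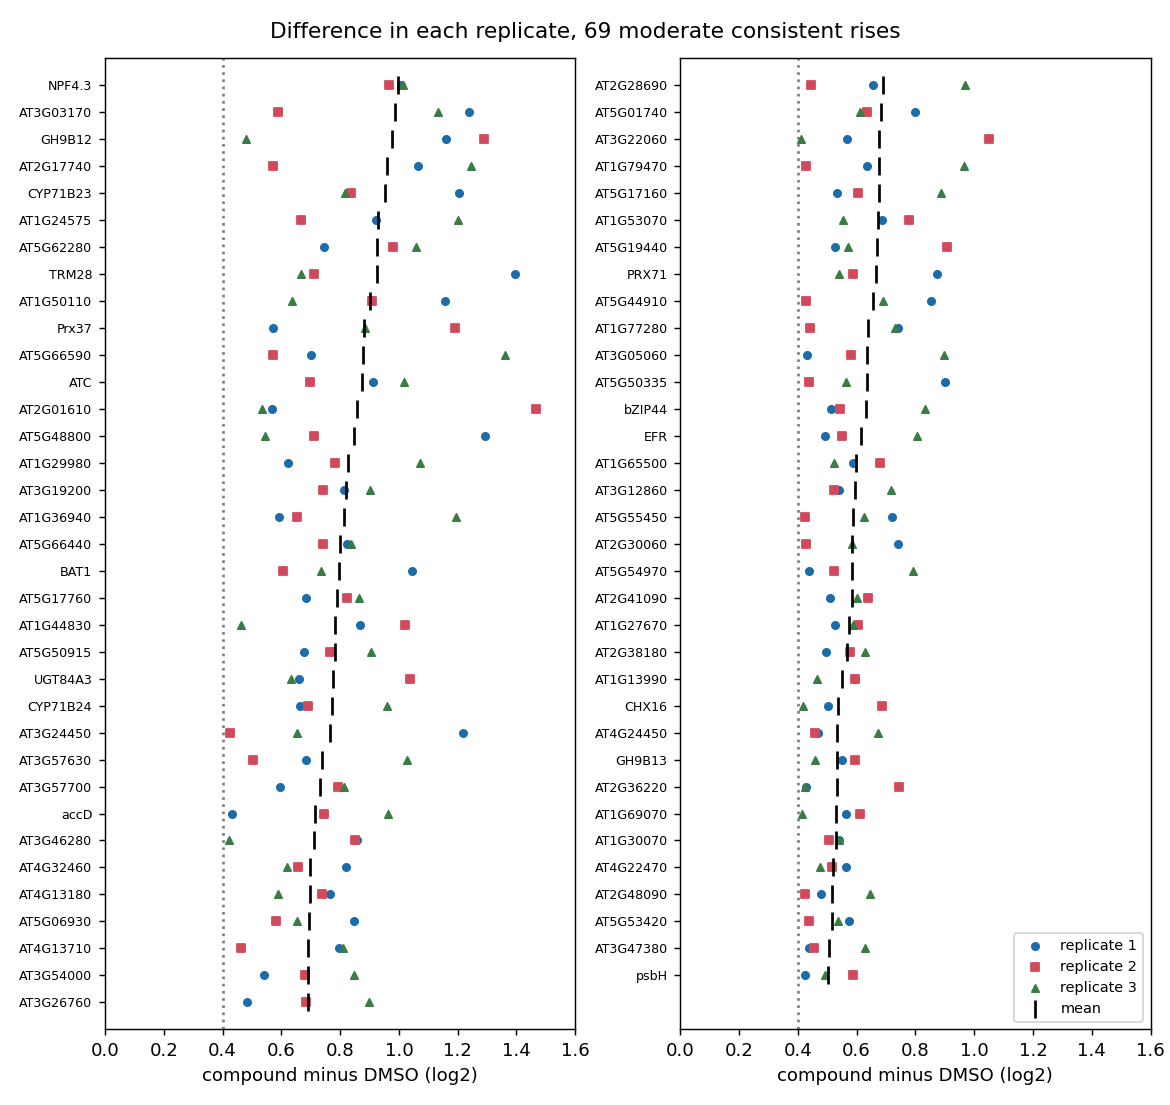
Compound minus DMSO on the log2 scale for each of the 69 genes in replicates 1 (circles), 2 (squares) and 3 (triangles), with the mean as a black bar and genes ordered by their mean. The dotted line marks the minimum of 0.4, the means fall from 0.996 (NPF4.3) to 0.503 (psbH), and the spread within a gene is widest for AT2G01610.

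The mirror rule, with all 3 differences at -0.4 or below and a mean from -0.5 to above -1.0, held for 64 one-gene probe sets at the same level minimum. Consistent upward differences with a mean of at least 1.0 held for 44. Moderate shifts in both directions were thus about equally frequent, at 0.965% up and 0.895% down of the 7151. A further 69 unnamed probe sets and 4 probe sets of several genes met the same thresholds. The unnamed ones had a median difference of 0.719 and a median level of 7.12.

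**Figure D2:**
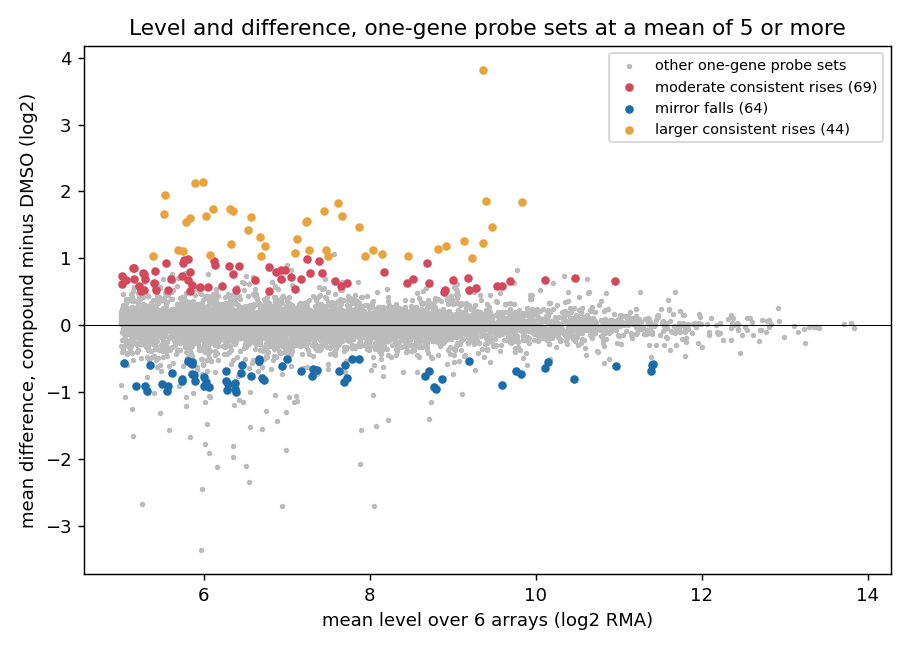
Mean difference (compound minus DMSO, log2) against mean level over 6 arrays (log2 RMA) for 7151 one-gene probe sets. The 69 genes form a band between 0.5 and 1.0 above zero, 64 mirror falls lie between -0.5 and -1.0, and 44 larger consistent rises lie at 1.0 or above.

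The mean level was a value the rule used, through its minimum of 5, so the levels are given as a description. It includes the compound arrays, and some genes passed the minimum only through them. EFR, for example, had a mean of 4.71 with DMSO and 5.32 with the compound. The median level of the 69 genes was 6.43, against 7.25 for the 7151. A level from 5 to below 6 was seen for 27 genes, 39.1% of the set against 20.6% of the 7151, from 6 to below 8 for 25 and from 8 upward for 17. The most abundant transcript was that of the peroxidase PRX71, at a mean of 10.95. AT4G32460 followed at 10.5 and AT5G01740 at 10.1.

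Of the 69 genes, 17 had a symbol or a name in the gene table and 52 were known by locus tag alone. No function is given here for these 52. Within the functional groups drawn up by keyword, the 17 were spread thinly. Cell wall enzymes, cytochromes P450, glutathione and redox enzymes, and transporters and channels each held 2, and transcription factors, glycosyltransferases and lipid metabolism 1 each. A list of peptide signals caught both P450 genes through the word polypeptide and is not used. None of the 17 measured auxin genes of those lists was among them, and none of the 69 was a gene of ethylene, cytokinin or abscisic acid and jasmonate by name. These zeros say little, as the set held only 69 of 13513 one-gene probe sets. Of the 13513, 1897 had a symbol or name, and the 52 genes with a locus tag alone carried no name to match. Only 7 of the 17 auxin genes had a mean level of at least 5, and their highest difference, 3.82, lay above the rule's upper bound. In those 17 auxin genes limma called 3 up and 0 down without the replicate block and 4 up and 0 down with it, and their median difference was 0.16. With the block it called 2 up and 0 down of 29 cytochromes P450 (median 0.02), 4 up and 3 down of 42 glutathione and redox enzymes (median 0.05) and 6 up and 4 down of 68 transporters and channels (median 0.05). Without the block it called 0 in each of these 3 lists. Over all 13513 one-gene probe sets the block fit called 208 up and 207 down, the fit without it 17 up and 21 down, and the median was 0.02.

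Endoglucanases of glycosyl hydrolase family 9 cut beta-1,4-glucans and act in wall remodelling, and 2 of them, both of class B, were in the set. GH9B12 read 5.41, 5.08 and 5.34 with DMSO and 6.57, 6.37 and 5.82 with the compound in replicates 1, 2 and 3. All its compound arrays lay above all its DMSO arrays, with a mean difference of 0.98 ± 0.44 (SD, n = 3), or 1.97-fold. GH9B13 read 5.16, 4.98 and 4.91 with DMSO and 5.71, 5.57 and 5.37 with the compound. Its groups did not overlap either, and its difference of 0.53 ± 0.07 (SD, n = 3) was far more even between replicates than that of GH9B12. Of 15 measured GH9 genes, GH9C2 had a difference of 1.42 and GH9C1 one of -1.91, and the other 11 outside the set lay between -0.13 and 0.14. Most of those 11 had mean levels below 5, near the bottom of the scale. Of the 90 measured cell wall enzymes by keyword, limma with the replicate block called 10 up and 5 down, and 0 up and 3 down without it. Over all 13513 one-gene probe sets the block fit called 208 up (1.54%) and 207 down, and the fit without it 17 up and 21 down. The 10 include GH9B12 and GH9B13, which the rule chose on this same contrast. Shares called up with the block varied between keyword lists. Examples are 6 of 68 transporters and channels and 1 of 108 genes of carbohydrate and amino acid metabolism. Nothing is therefore read from the count for cell wall enzymes. The median difference was 0.02 both in that list and over all one-gene probe sets.

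Class III peroxidases are secreted haem enzymes that use or make hydrogen peroxide in the cell wall. Prx37 read 5.66, 6.75 and 5.54 with DMSO and 6.23, 7.94 and 6.43 with the compound. PRX71 (AT5G64120) read 10.13, 11.27 and 10.46 with DMSO and 11.0, 11.86 and 11.0 with the compound. Both were highest in replicate 2 in either group, so that the groups overlapped. The differences were 0.88 ± 0.31 for Prx37 and 0.67 ± 0.18 for PRX71 (SD, n = 3), or 1.84-fold and 1.59-fold. Among the 6 peroxidases that the gene table names, the other 4 had differences of 0.16 (PRX52), 0.11 (AT3G50990), 0.04 (AT2G41480) and -1.43 (AT5G66390). Only 3 of the 6 had a mean level of at least 5.

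Cytochromes P450 of the CYP71B subfamily are monooxygenases of plant metabolism. CYP71B23 read 5.88, 7.87 and 6.97 with DMSO and 7.08, 8.71 and 7.78 with the compound. CYP71B24 read 4.47, 5.73 and 4.49 with DMSO and 5.14, 6.42 and 5.45 with the compound. Each gene was higher with the compound within every replicate number, by 0.95 ± 0.22 and 0.77 ± 0.16 (SD, n = 3), while replicate 2 was the highest in both groups. The pair lies 1 gene apart on the chromosome. Related sequences can share signal on an array, so how far the probe sets read separate transcripts is uncertain. The other 17 of the 19 measured members of the subfamily lay between -0.24 and 0.32, with CYP71B26 at 0.32 and CYP71B22 at 0.29. Only 10 of the 19 had a mean level of at least 5, so small differences in the rest are hard to read. The median of the 19 was 0.02.

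UGT84A3 encodes a glucosyltransferase of the group that forms glucose esters of hydroxycinnamic acids. It read 6.72, 7.56 and 6.40 with DMSO and 7.38, 8.60 and 7.03 with the compound, a difference of 0.78 ± 0.23 (SD, n = 3). Replicate 2 was again highest in both groups. The other 4 measured UGT84 genes lay between -0.12 (UGT84A1) and 0.13 (UGT84A4), and of these only UGT84A4 had a mean level above 5.

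BAT1, also called PIZZA, encodes a brassinosteroid-related acyltransferase, and brassinosteroids are hormones of cell expansion. It read 5.62, 5.20 and 5.47 with DMSO and 6.67, 5.80 and 6.21 with the compound. The groups did not overlap, and the difference was 0.79 ± 0.22 (SD, n = 3), or 1.73-fold. It was the only gene of the set with a hormone in its name.

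Among regulators, ATC, a relative of TERMINAL FLOWER 1 that acts in flowering time, read 6.64, 6.41 and 6.01 with DMSO and 7.55, 7.10 and 7.03 with the compound. Its difference was 0.88 ± 0.16 (SD, n = 3), and the groups did not overlap. The transcription factor gene bZIP44 read 8.67, 8.46 and 8.06 with DMSO and 9.19, 9.0 and 8.89 with the compound, a difference of 0.63 ± 0.18. Its groups also stood apart, and the other 19 measured genes named as bZIP factors lay between -0.24 and 0.13. Of these 20 genes, 11 had a mean level of at least 5.

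TRM28 belongs to the TON1 recruiting motif proteins, a family linked to microtubule arrays. It read 4.69, 5.37 and 5.19 with DMSO and 6.08, 6.08 and 5.85 with the compound. The compound arrays were more alike than the DMSO arrays, and the difference was 0.92 ± 0.41 (SD, n = 3), largest in replicate 1. The other 13 measured members of the family lay between -0.31 and 0.36, and 6 of the 14 had a mean level of at least 5.

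EFR, the receptor kinase that recognises bacterial elongation factor Tu, read 4.77, 5.01 and 4.33 with DMSO and 5.26, 5.56 and 5.14 with the compound. The difference was 0.62 ± 0.17 (SD, n = 3). Its groups stood apart by 0.12, and its mean level of 5.01 was the second lowest of the set.

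Membrane transport was represented by NPF4.3 (AT1G59740), of the nitrate and peptide transporter family, and CHX16, a cation/proton exchanger. NPF4.3 read 7.05, 6.57 and 6.61 with DMSO and 8.06, 7.54 and 7.62 with the compound. Its difference of 1.00 ± 0.02 (SD, n = 3) was the highest mean of the set and had the second smallest spread. CHX16 read 7.20, 6.84 and 6.44 with DMSO and 7.70, 7.53 and 6.86 with the compound, with a difference of 0.54 ± 0.14 and overlapping groups. Of the 10 other measured genes of the NPF family, GTR2 was at 0.36 and AT3G21670 at -0.88, and the other 8 lay between -0.17 and 0.33. The other 5 measured CHX genes lay between -0.15 and 0.13. A mean level of at least 5 was reached by 6 of the 11 NPF genes and 2 of the 6 CHX genes.

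The set also held AT4G24450, a gene of the glucan water dikinase family, whose enzymes phosphorylate starch. It read 5.52, 4.63 and 5.32 with DMSO and 5.98, 5.09 and 6.0 with the compound. It was lowest in replicate 2 in both groups, and the difference was 0.53 ± 0.12 (SD, n = 3). The gene table gives the symbol PWD to this gene and to AT5G26570, whose difference was 0.17 at a level of 9.14.

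A pair of plastid-encoded genes met the thresholds: accD, for a subunit of plastid acetyl-CoA carboxylase, which starts fatty acid synthesis, and psbH, for a small subunit of photosystem II. The array protocol labels from the 3' end, where plastid transcripts largely lack long poly(A) tails. accD read 7.10, 6.64 and 6.34 with DMSO and 7.53, 7.39 and 7.30 with the compound, with a difference of 0.71 ± 0.27 (SD, n = 3). psbH read 9.08, 8.41 and 8.44 with DMSO and 9.5, 9.0 and 8.93 with the compound, a difference of 0.50 ± 0.08. The accD groups stood apart and the psbH groups overlapped. Over the 69 measured plastid-encoded genes, 61 had a higher mean with the compound (88.4%, against 55.7% of all 13513 one-gene probe sets) and 17 a difference of at least 0.4 (24.6% against 2.34%). Both shares rest on means over the replicates. In replicate 1 many of these genes were lower with the compound, and in replicates 2 and 3 fewer were. The median over the 69 was 0.16. limma called 0 of the 69 without the replicate block and 6, all up, with it. The share of all one-gene probe sets called up with the block was 1.54% (208 of 13513). By contrast, rpl16 had the widest plastid difference, 0.83, and missed the rule because its replicate 1 values were 10.54 with DMSO and 10.81 with the compound.

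**Figure D3:**
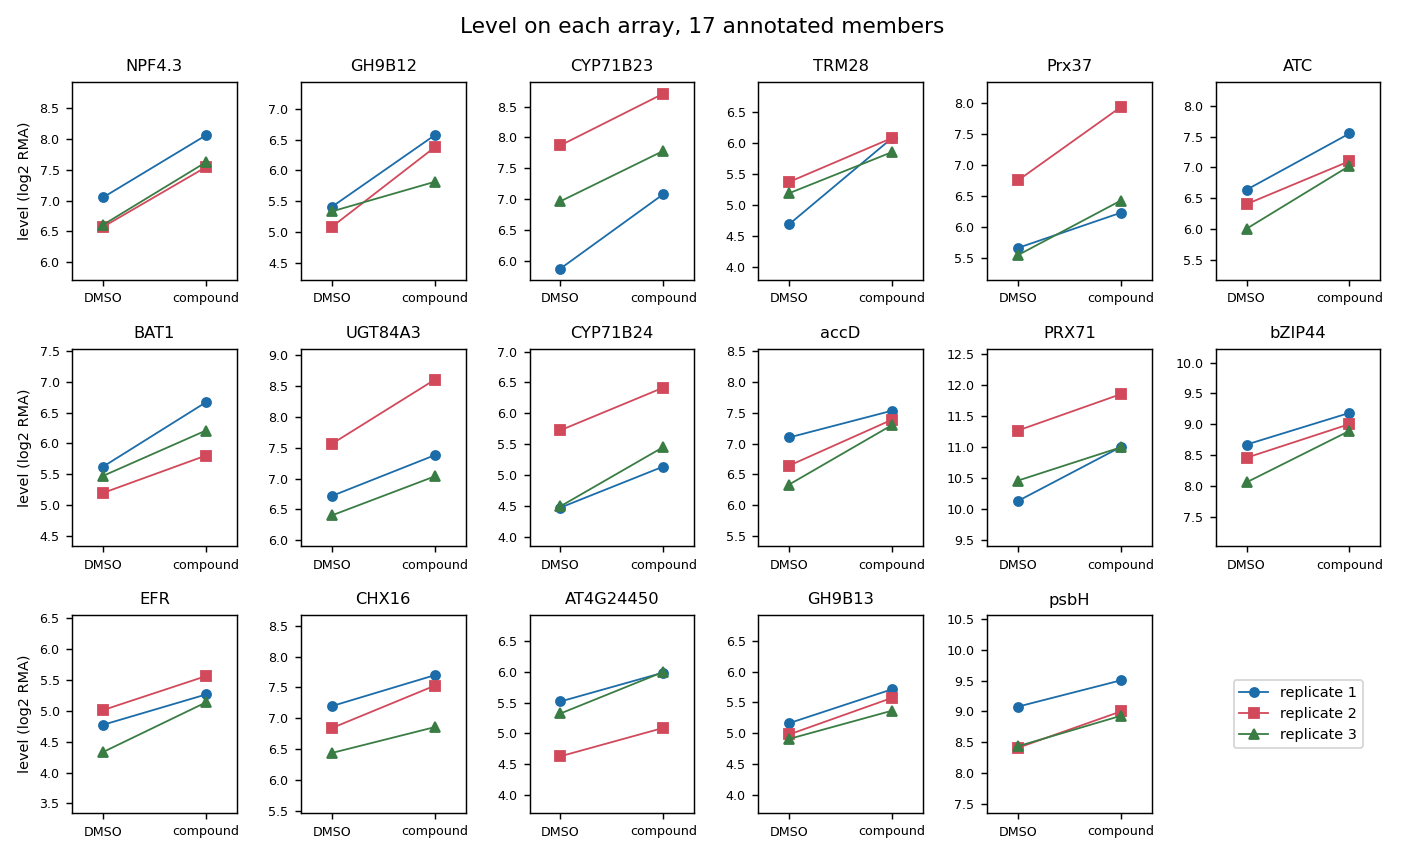
Level (log2 RMA) with DMSO and with the compound for the 17 genes that have a symbol or name, 1 panel per gene and 1 line per replicate number, each panel spanning the same height in log2 units. All lines climb, and in CYP71B23, CYP71B24, UGT84A3, Prx37 and PRX71 the replicate 2 line lies well above the others.

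Genes known by locus tag alone included several of the widest and of the most even differences. AT3G03170 read 5.30, 5.35 and 5.30 with DMSO and 6.53, 5.94 and 6.43 with the compound, the narrowest DMSO range of the set at 0.0584. Its difference was 0.99 ± 0.35 (SD, n = 3). AT5G62280 read 8.39, 7.79 and 8.5 with DMSO and 9.13, 8.77 and 9.55 with the compound, a difference of 0.93 ± 0.16. Both had groups that stood apart. AT1G24575, AT1G50110 and AT5G66590 had differences of 0.93, 0.90 and 0.88, also with groups apart.

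The most even gene was AT1G30070, at 5.97, 6.64 and 5.75 with DMSO and 6.51, 7.15 and 6.29 with the compound. Its difference of 0.53 ± 0.02 (SD, n = 3) varied far less than its level, and the groups overlapped. AT5G66440 read 8.08, 7.78 and 7.44 with DMSO and 8.91, 8.53 and 8.28 with the compound, a difference of 0.80 ± 0.05 with groups apart. Further even differences were those of AT1G27670 (0.57 ± 0.04), AT4G22470 (0.52 ± 0.04), AT2G41090 (0.58 ± 0.07) and AT2G38180 (0.57 ± 0.07). In each of these 4 the groups overlapped.

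Among the abundant transcripts, AT4G32460 read 10.07, 10.38 and 9.92 with DMSO and 10.89, 11.04 and 10.54 with the compound, a difference of 0.70 ± 0.11 (SD, n = 3) with groups apart. AT5G01740 read 9.0, 9.81 and 10.50 with DMSO and 9.80, 10.45 and 11.11 with the compound. It was the only gene of the set over 0.5 above its own mean in replicate 3, and its difference was 0.68 ± 0.10. AT5G19440 and AT2G30060 followed in abundance, with differences of 0.67 and 0.59, and AT1G13990 stood at 0.55 ± 0.07.

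A few genes had DMSO arrays that lay close together. The DMSO range was below 0.3 for 6 of the 69, which were AT3G03170, GH9B13 and 4 genes with a locus tag alone. AT3G54000 read 5.03, 4.88 and 4.92 with DMSO and 5.57, 5.56 and 5.77 with the compound. AT3G26760 read 6.86, 6.71 and 6.91 with DMSO and 7.34, 7.4 and 7.81 with the compound. Both had a difference of 0.69 and groups apart by 0.53 and 0.43. The others were AT4G13710, with a difference of 0.69 ± 0.20 (SD, n = 3), and AT1G36940, with 0.81 ± 0.33.

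The gene with the widest gap between its groups was AT1G29980, at 6.75, 6.63 and 6.31 with DMSO and 7.37, 7.42 and 7.38 with the compound, a gap of 0.62. AT3G19200 read 6.34, 7.02 and 6.20 with DMSO and 7.16, 7.76 and 7.11 with the compound, a difference of 0.82 ± 0.08 (SD, n = 3). Its groups stood apart by only 0.09, since both followed the replicate number. AT5G17760 was alike, with a difference of 0.79 ± 0.09 and a gap of 0.04. AT5G48800, AT1G44830 and AT3G24450 had wider spreads, with differences of 0.85 ± 0.39, 0.78 ± 0.29 and 0.77 ± 0.41, and groups apart in each.

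Other locus-tag genes had overlapping groups without being high in replicate 2. AT5G55450 read 7.65, 6.95 and 7.49 with DMSO and 8.37, 7.37 and 8.12 with the compound, lowest in replicate 2 in both groups. AT1G69070 was also lowest in replicate 2, at 5.54, 4.76 and 5.63 with DMSO and 6.10, 5.37 and 6.04 with the compound. AT5G54970 was lowest in replicate 3, at 6.33, 6.11 and 5.36 with DMSO and 6.77, 6.64 and 6.15 with the compound. Their differences were 0.59 ± 0.15, 0.53 ± 0.10 and 0.58 ± 0.18 (SD, n = 3). AT2G36220, among the 12 most abundant, had groups apart and a difference of 0.53 ± 0.18.

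The level of a gene in a replicate number, taken as the mean of its DMSO and compound arrays, was not used by the rule beyond the overall minimum. On this measure 18 of the 69 genes were over 0.5 above their own mean in replicate 2, which is 26.1% against 2.45% of the 7151 one-gene probe sets. The count is not free of the minimum. Among the 18, AT3G57700, AT2G01610, AT5G50915 and CYP71B24 reached a mean level of 5 only with their replicate 2 arrays. In replicate 1 none of the 69 was that far above its mean, and in replicate 3 it was 1. The same share in replicate 2 was 26.1% of the unnamed probe sets that met the thresholds (18 of 69), 34.1% of the larger rises (15 of 44) and 7.81% of the mirror falls (5 of 64). These are descriptions of the same 6 arrays, and what the arrays of replicate 2 shared is not stated in the labels.

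The clearest case was AT2G17740, at 5.13, 7.47 and 4.33 with DMSO and 6.20, 8.05 and 5.57 with the compound. Its DMSO arrays spanned 3.15, several times its difference of 0.96 ± 0.35 (SD, n = 3). AT1G65500 read 4.77, 7.14 and 4.76 with DMSO and 5.36, 7.82 and 5.29 with the compound, a difference of 0.60 ± 0.08. AT3G46280 read 8.04, 10.09 and 8.36 with DMSO and 8.90, 10.94 and 8.78 with the compound, a difference of 0.71 ± 0.25. In all 3 genes the DMSO array of replicate 2 lay above the compound arrays of replicates 1 and 3. AT2G41090, AT2G38180 and AT3G57700 followed, at 1.18, 1.17 and 0.98 above their means in replicate 2. The 5 annotated genes among the 18 were CYP71B23, CYP71B24, UGT84A3, Prx37 and PRX71. Without pairing by replicate number, the difference of each of the 18 moved by over 1.5 times when some single array was left out, as did that of 12 of the other genes. That of AT3G46280 was 0.01 without compound replicate 2 and 1.34 without DMSO replicate 2, and that of AT2G17740 was 0.24 and 1.88.

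At the other end, 47 genes stayed within 0.5 of their own mean in every replicate number. Replicate 3 was the lowest of the 3 numbers for 33 of the 69 genes, 47.8% against 28.4% of the 7151. The range over the 3 DMSO arrays had a median of 0.684 in the set and 0.384 over the 7151. It exceeded the gene's own mean difference in 33 of the 69.

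**Figure D4:**
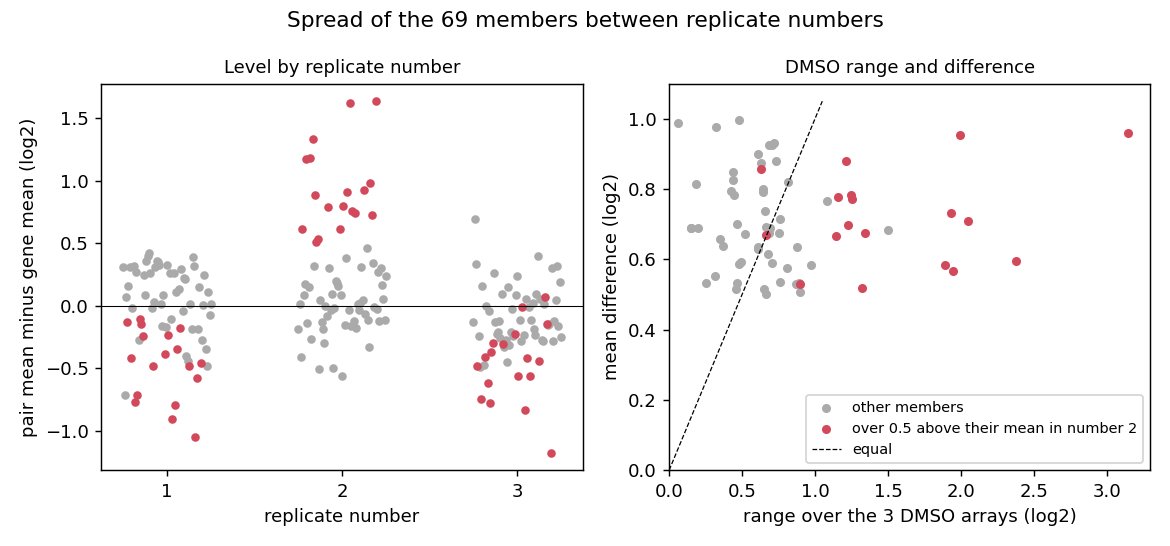
Left, mean of the DMSO and compound arrays of each replicate number minus the gene's mean over 6 arrays (log2), 1 point per gene and number. Right, mean difference against the range over the 3 DMSO arrays (log2), with the dashed line where both are equal. The 18 genes over 0.5 above their mean in replicate 2 (red) reach DMSO ranges up to 3.15.

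A test of the same contrast was run across all probe sets. Since the rule used that contrast, the counts are printed beside their background and nothing is read from them. The 3 compound arrays lay above all 3 DMSO arrays for 38 of the 69 genes (55.1%), against a background of 5.37% of all probe sets (1221 of 22746). With treatment as the only term, limma called 0 of the 69 up at a Benjamini-Hochberg adjusted p below 0.05, against a background of 0.119% (27 of 22746), with 41 of the 69 at an unadjusted p below 0.05, beside a background of 2.6% higher with the compound (591 of 22746). The lowest adjusted p was 0.0698. With the replicate number as a block, limma called 68 of the 69, against a background of 1.83% (416 of 22746). With a random block for the replicate number it called 36, against a background of 0.95% (216 of 22746). The median standard error of the difference was 0.234 without the fixed block and 0.0897 with it. The gene not called with the fixed block was AT2G01610, at 4.75, 5.04 and 4.41 with DMSO and 5.32, 6.51 and 4.95 with the compound (limma with the block, adjusted p = 0.0521), whose difference of 0.86 ± 0.53 (SD, n = 3) had the widest spread of the set.

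Values on both sides of each bound were close to each other. Just inside the lower bound of the mean were psbH (0.503), AT3G47380 (0.508) and AT5G53420 (0.516), and just outside were BRH1 (0.499), SAPX (0.483) and AT2G35820 (0.466). BRH1 is a brassinosteroid-responsive RING-H2 gene and SAPX encodes stromal ascorbate peroxidase. Just inside the upper bound were NPF4.3 (0.996), AT3G03170 (0.987) and GH9B12 (0.977), and just outside were AT1G62770 (1.01), AT3G13650 (1.03) and TBL41 (1.03). At the level minimum, AT3G57700 (5.01), EFR (5.01) and AT5G17160 (5.07) were inside, and AT1G75640 (4.90), AT3G15357 (4.82) and RALFL18 (4.81) outside. On the smallest of the 3 differences, AT3G22060 (0.413), AT1G69070 (0.415) and CHX16 (0.419) were inside, and SAG29 (0.397), AT2G41800 (0.383) and AT5G52450 (0.383) outside.

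By locus tag, 16, 10, 14, 9 and 18 of the genes were nuclear genes of chromosomes 1, 2, 3, 4 and 5, and 2 were plastid genes. Neighbours within 20 genes of each other were few. Besides CYP71B23 and CYP71B24, AT1G29980 and AT1G30070 had 8 genes between them, with differences of 0.83 and 0.53, and AT3G57630 and AT3G57700 had 10 genes between them, with differences of 0.74 and 0.73. No gene of the set had a second one-gene probe set, so none of the differences could be read a second time.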

How the data were processed

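Values were the log2 expression values deposited by the authors, 1 per probe set and array, made with RMA per the submitters' processing notes (version not given in the sources used here). RMA sets the arrays to common quantiles, so a shift of all transcripts would not show. Of 22810 probe sets, 64 controls were left out. Probe sets were named through the platform annotation and the NCBI gene table of TAIR10.1: 13513 had 1 gene, 503 several, and 8730 were unnamed here. No sequences or genome were used. The number of arrays limits the precision.

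Compound minus DMSO was taken within replicate numbers from the titles, as the rule asks. limma 3.58.1 in R 4.3.3 (lmFit, eBayes, treatment as the only term) was fitted to all 22746 probe sets, with calls at 0.05 after Benjamini-Hochberg adjustment. Fits with and without the replicate block were also run on simulated data with known differences. Those differences were wider than the ones of the set, so calling at the size seen here was not tested. Arrays of the same number deviated together from their group means (correlations across probe sets 0.727, 0.728 and 0.743, against -0.426 to -0.275 for different numbers), so the numbers were taken to pair the samples, as in the fit with the replicate block. Labels call the samples biological replicates.

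The members and lists were chosen with earlier results of these data known. Keyword groups were matched on symbols and synonyms only; families were picked after values were seen. The naming rule took the 12 highest differences, the 12 smallest SDs, the 12 highest levels, the genes at each bound, and leading genes of keyword groups with at least 3 members, of which there were none. All annotated genes were named besides.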

Additional observations from a re-analysis of the deposited data

How the results depend on the processing

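The number of one-gene probe sets that met the thresholds was 69, and 78 with a level minimum of 4, 42 with one of 6, 91 and 39 with each difference at least 0.3 and 0.5, 66 with arrays centred on their medians, and 142 over all non-control probe sets. Without replicate numbers (groups apart, same range of means) it was 55, of which 38 were shared. On 2 differences it was 101 to 103, of which 52 to 63 were shared.

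limma called 78 probe sets, 865 with the replicate block, 491 with replicate number as a random block, and 0 to 76 without single arrays: 76, 40 and 1 without DMSO replicate 1, 2 and 3, and 0 without any compound array. Of the 69 genes it called 0 without the block in all of these fits. It called 68 with the block (background 1.83%) and 36 with the random block (background 0.95%). With the block and 1 pair left out, an alternative chosen after seeing the data, limma called 205 to 743 probe sets and 10 to 66 of the 69 genes (516 and 40 without replicate 1, 743 and 66 without replicate 2, 205 and 10 without replicate 3), with 1 residual degree of freedom in place of 2. These totals are out of all 22746 probe sets and count both directions. The share called up was not taken for these fits, so nothing is read from their counts of the 69.

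Of 81 genes checked, 3 changed sign, each without compound replicate 2: AT1G65500 (-0.236 to 1.39 over the fits without 1 array), AT2G41090 (-0.0226 to 1.16) and AT2G38180 (-0.0209 to 1.15). Leaving out 1 array breaks a pair, and these are genes whose level was highest in replicate 2. No other listed difference changed sign, but in the fit without the block 30 of the 69 moved by over 1.5 times without at least 1 array (12, 14 and 11 without DMSO replicate 1, 2 and 3, and 7, 19 and 7 without compound replicate 1, 2 and 3). Without compound replicate 2 the differences included 0.00979 for AT3G46280, 0.14 for AT3G22060, 0.24 for AT2G17740, 0.31 for UGT84A3, 0.34 for Prx37, 0.38 for PRX71 (AT5G64120) and 0.40 for CYP71B24, and CYP71B23 was at 0.44 without DMSO replicate 1. With a whole pair left out, the difference of 1 gene, AT2G01610, moved by over 1.5 times (without replicate 2), and the ratio of the 69 to the full difference ran from 0.644 to 1.25. The rule itself limits such moves, since each of the 3 differences had to be at least 0.4 and their mean below 1.0. The narrow range of ratios is therefore no check of the genes. The planned promoter motif comparison was not run, because no promoter sequences were used here.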
